A study of Mus musculus with 6 samples.

Results

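Galectins and the enzymes that build their N-glycan ligands were examined as 10 genes, namely Lgals1, Lgals3, Lgals3bp, Lgals8, Lgals9, Lgalsl, Mgat5, Mgat4a, Mgat4b and B4galt1. Their members were the 16 probe sets that the platform annotation assigns to exactly 1 of these symbols, of 45037 probe sets and 18193 genes measured in all. No probe set with several symbols held a member. Probe sets numbered 3 for Mgat5, 2 each for Lgals1, Lgals8, Lgalsl and Mgat4a, and 1 each for the other 5 genes. The series title names galectin-1 and galectin-3 in the lesioned brain.

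Expression was measured on 6 arrays, 3 for each of 2 groups of green fluorescent cells sorted from grey matter of the mouse somatosensory cortex. The reactive arrays came from FVB/N mice of 2 to 3 months carrying TgN(hGFAP-EGFP) GFEA, whose reporter runs from a promoter of human GFAP, taken 5 days after wounding by a stab that reached 0.7 mm in depth and 1 to 1.2 mm in length. The non-reactive arrays came from FVB/N mice of the same age carrying Tg(Aldh1l1-eGFP)OFC789Gsat, in which Aldh1l1 regulatory sequence drives it, without injury. Each array held cells pooled from about 15 animals of undetermined sex, and fluorescence gates were set on cells of C57BL/6 mice. Injury and reporter line changed together, so they cannot be told apart in any difference below. The protocols also describe BrdU labelling without saying which animals received it. The labels call the arrays biological replicates, and the p-values measure the spread between these pools.

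Galectins are small lectins that bind beta-galactosides, mostly N-acetyllactosamine units on the glycans of surface and secreted glycoproteins. The number of such units on an N-glycan depends on how many antennae its core carries. Mgat4a, Mgat4b and Mgat5 encode the Golgi N-acetylglucosaminyltransferases that start the outer antennae, and B4galt1 encodes a galactosyltransferase that completes the N-acetyllactosamine on them. Galectin-1 forms dimers, galectin-3 is a chimera of a lectin domain and a self-associating tail, and galectin-8 and galectin-9 carry a pair of different lectin domains in tandem. In the brain galectin-3 is best known from activated microglia and macrophages, and galectin-1 from astrocytes, progenitors and vessels.

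Arrays of the same label were less alike on the reactive side. Pearson correlations over all probe sets ran from 0.901 to 0.921 within the reactive arrays and from 0.95 to 0.963 within the non-reactive arrays. Between the groups they ran from 0.889 to 0.930, so the highest exceeded every correlation within the reactive arrays. All 14 astrocyte markers had means above 4.74, the median of all probe set means, which serves here as a guide to dim signals. Their mean log2 level ran from 9.14 to 9.50 on reactive arrays and from 10.43 to 10.87 on non-reactive arrays. Gfap and Aldh1l1, whose sequences drive the reporters, differed by 3.12 (adjusted p = 0.0492) and -0.57 (adjusted p = 0.366). Because these promoters defined the sorts, Gfap and Aldh1l1 are not independent of how the cells were chosen. Reactive replicate 3 stood apart, with a mean level of 12 vascular markers of 6.11, against 4.89 and 4.93 on reactive replicates 1 and 2, and results that rest on it are given without it. The 3′ minus 5′ signal of the Gapdh control ran from 3.85 to 4.64 on reactive arrays and from 4.77 to 5.74 on non-reactive arrays, and that of Actb from 2.53 to 4.27 and from 4.48 to 5.37. The part of these differences in the results below was not tested.

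**Figure D1:**
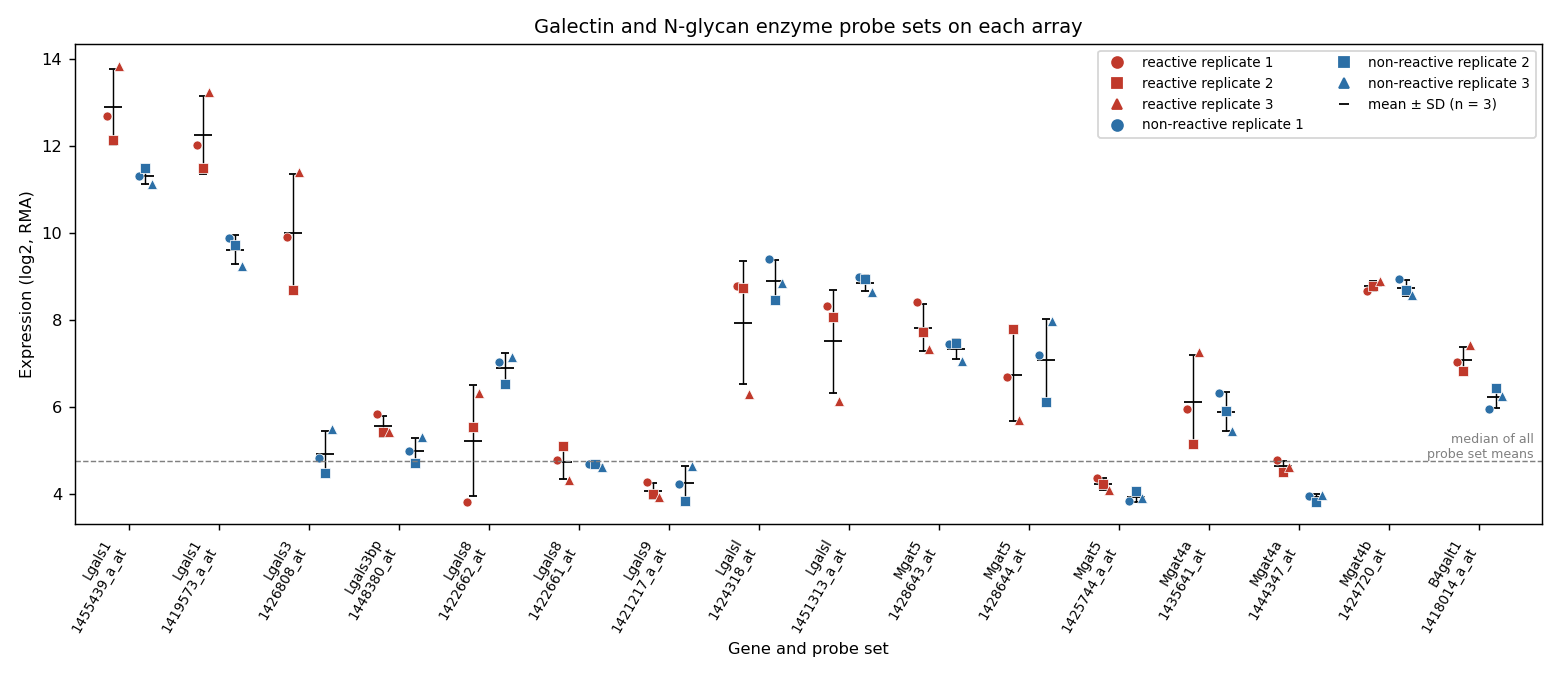
Expression (log2, RMA) of the 16 probe sets on every array, with reactive arrays in red left of non-reactive arrays in blue, black bars for mean ± SD (n = 3 each) and a dashed line at 4.74, the median of all probe set means. Lgals3 reads 8.67 to 11.39 on reactive arrays and 4.47 to 5.48 on non-reactive arrays, and Mgat4b reads between 8.58 and 8.94 on all 6.

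Galectin-3 was the member that separated the groups most. Lgals3, a lectin that binds N-acetyllactosamine and gathers on damaged lysosomes, read 9.90, 8.67 and 11.39 (log2) in reactive replicates 1, 2 and 3, against 4.82, 4.47 and 5.48 in non-reactive replicates 1, 2 and 3. Every reactive array lay more than 3 log2 units above every non-reactive array, and reactive replicate 3 was the highest. The mean was 9.99 ± 1.36 in reactive and 4.92 ± 0.51 in non-reactive cells (SD, n = 3 each). Lgals3 rose by 5.07 on the log2 scale (SE 0.67, 95% interval 3.46 to 6.67, limma adjusted p = 0.0373). On a linear scale that interval spans 11-fold to 102-fold. Ordered from the largest rise to the largest fall, Lgals3 ranked 5 of 18193 genes. That interval is wide, so the fold is imprecise, and the SD was larger among the reactive arrays. The non-reactive mean lay only just above 4.74, the guide to dim signals, so the fold may also be understated. Of all probe sets 0.85% passed, 0.266% higher and 0.584% lower, and of the 16 member probe sets 1 rose and 0 fell in limma. An unadjusted p under 0.05 was found in 6 of the 16 and in 13.2% of all probe sets.

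The call for galectin-3 depended on which arrays were included, although its direction did not. Without reactive replicate 3, the array that stood apart, the difference was 4.36 and the call held (adjusted p = 0.0415), as it did without reactive replicate 2 (5.73, adjusted p = 0.0378). Leaving out reactive replicate 1 gave an adjusted p of 0.0898, and leaving out the non-reactive arrays gave 0.132 for replicate 1, 0.138 for replicate 2 and 0.108 for replicate 3, so the call was lost. The difference in these 4 fits ran from 4.84 to 5.34.

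The start of Lgals3 is shown because it is the one member that passed. RefSeq gives the 250 bases before its transcription start on GRCm38.p6 as chr14:47373610-47373859, plus strand. They are printed 5′ to 3′ with the only GC box in capitals.
Lgals3: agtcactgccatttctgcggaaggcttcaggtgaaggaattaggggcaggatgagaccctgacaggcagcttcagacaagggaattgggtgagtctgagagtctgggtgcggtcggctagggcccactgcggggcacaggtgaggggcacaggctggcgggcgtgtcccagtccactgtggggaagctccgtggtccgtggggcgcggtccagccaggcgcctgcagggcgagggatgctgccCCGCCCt
The stretch was 66% G and C. A GC box, searched as GGGCGG on both strands, occurred 1 time here and in 32.7% of 32851 promoter windows of this length. An E-box, searched as CANNTG on both strands, occurred 2 times and in 66.2% of windows. No match was present for AP-1 (TGANTCA, in 6.75% of windows) or STAT (TTCNNNGAA, in 7.02%), both searched on both strands, which says only that those letters are not in this window. The motifs were searched separately, and overlaps between them were not removed. Promoter windows were found for 8 of the 10 genes, and among the others the GC box occurred 5 times before B4galt1, 3 times before Lgalsl, 2 times in 1 of 2 windows of Mgat4a and 1 time before Mgat5, and not before Lgals3bp, Lgals8 or Lgals9.

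Galectin-1 was higher on every reactive array in both of its probe sets, without passing. Lgals1 encodes a dimeric lectin that crosslinks cell surface glycoproteins. Its brighter probe set, 1455439_a_at, read 12.68, 12.12 and 13.84 in reactive replicates 1, 2 and 3, against 11.29, 11.48 and 11.12 in non-reactive replicates 1, 2 and 3. The groups did not overlap, and reactive replicate 3 was again highest. The difference was 1.58 (SE 0.43, 95% interval 0.54 to 2.62, adjusted p = 0.196), and without reactive replicate 3 it was 1.10.

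The other Lgals1 probe set, 1419573_a_at, gave a larger difference on the same arrays. It read 12.02, 11.50 and 13.24 in the reactive replicates, against 9.87, 9.71 and 9.24 in the non-reactive replicates. The difference was 2.64 (SE 0.46, 95% interval 1.55 to 3.74, adjusted p = 0.0666). Without reactive replicate 3 it was 2.15 (adjusted p = 0.0612), and in no alternative did it pass (lowest adjusted p = 0.0507). Within each array the brighter probe set exceeded the dimmer by 0.60 to 0.66 on reactive arrays and by 1.42 to 1.88 on non-reactive arrays, so the probe sets moved by unequal amounts. The interval of each probe set lay wholly above 0.

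The tandem-repeat galectins showed no clear direction, and none of their probe sets passed. Lgals8 encodes galectin-8, which binds sialylated glycans and marks damaged vesicles for autophagy. Probe set 1422662_at read 3.82, 5.53 and 6.32 in reactive replicates 1, 2 and 3, against 7.02, 6.52 and 7.14 in non-reactive replicates. All reactive arrays were lower, with reactive replicate 1 lowest and reactive replicate 3 only just below the non-reactive arrays. The difference was -1.67 (SE 0.62, 95% interval -3.14 to -0.21, adjusted p = 0.323), and -0.97 without reactive replicate 1. Its other probe set, 1422661_at, which the annotation ties to the same source sequence, read 4.77, 5.10 and 4.32 in the reactive replicates, against 4.68, 4.68 and 4.60. It differed by 0.075 (95% interval -0.52 to 0.67), and its mean lay below 4.74. The probe sets of Lgals8 thus gave unlike values, and neither passed.

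Galectin-9 was dim in both groups. Lgals9, a ligand of the immune receptor encoded by Havcr2, read 4.27, 3.99 and 3.92 in reactive replicates, against 4.22, 3.84 and 4.64 in non-reactive replicates. The groups overlapped (difference -0.17, 95% interval -0.80 to 0.45, adjusted p = 0.795), and a change in so dim a probe set may be understated.

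The galectin-like gene was lower in reactive cells mainly through reactive replicate 3, and did not pass. Lgalsl encodes a protein with a galectin fold that lacks residues needed to bind lactose. Probe set 1424318_at read 8.78, 8.73 and 6.30 in the reactive replicates, against 9.39, 8.46 and 8.84 in the non-reactive replicates. Probe set 1451313_a_at read 8.31, 8.06 and 6.14, against 8.98, 8.93 and 8.63. Reactive replicate 3 was the low array in both, and the groups overlapped in 1424318_at but not in 1451313_a_at. The differences were -0.96 (95% interval -2.61 to 0.68, adjusted p = 0.581) and -1.35 (95% interval -2.70 to 0.0045, adjusted p = 0.379). Without reactive replicate 3 they were -0.15 and -0.66.

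The galectin ligand in the set had low signals and did not pass. Lgals3bp encodes a secreted glycoprotein of the scavenger receptor family that binds galectin-3. It read 5.82, 5.41 and 5.41 in reactive replicates, against 4.97, 4.70 and 5.29 in non-reactive replicates. The groups did not overlap, though the highest non-reactive array lay close under the reactive ones. The difference was 0.56 (SE 0.24, 95% interval -0.021 to 1.14, adjusted p = 0.392).

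**Figure D2:**
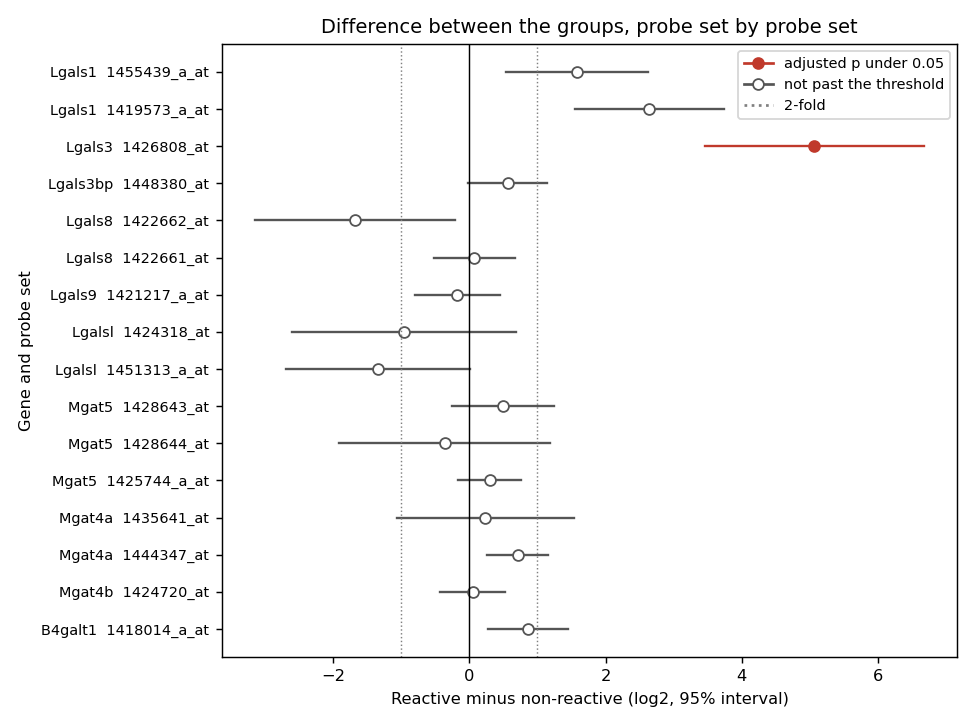
Reactive minus non-reactive difference (log2) of each member probe set with its 95% interval from the limma fit on 6 arrays, where the filled red point passed an adjusted p of 0.05 and dotted lines mark 2-fold. Lgals3 at 5.07 is the filled point, and the 7 enzyme probe sets lie between -0.36 and 0.87.

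The enzymes that build galectin ligands did not pass. Of their 7 probe sets 0 passed in limma, 2 had an unadjusted p under 0.05, and 0 differed by 2-fold. Over all probe sets 10.8% differed by at least 2-fold and 13.2% had an unadjusted p under 0.05. B4galt1 read 7.02, 6.81 and 7.41 in reactive replicates, against 5.95, 6.43 and 6.26 in non-reactive replicates. The groups did not overlap, and the difference of 0.87 (SE 0.25, 95% interval 0.28 to 1.45) had an adjusted p of 0.209.

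Mgat5 starts the branch that is most readily extended with poly-N-acetyllactosamine, and its 3 probe sets disagreed in sign. Probe set 1428643_at read 8.40, 7.71 and 7.34 in reactive replicates, against 7.44, 7.47 and 7.05 in non-reactive replicates. Probe set 1428644_at, tied to the same source sequence, read 6.69, 7.78 and 5.69, against 7.18, 6.10 and 7.96. Both pairs of groups overlapped, and over the 6 arrays these probe sets had a correlation of -0.13. The differences were 0.49 (95% interval -0.26 to 1.24, adjusted p = 0.542) and -0.36 (95% interval -1.91 to 1.19, adjusted p = 0.831). The third, 1425744_a_at, read 4.37, 4.21 and 4.09 in reactive replicates, against 3.82, 4.06 and 3.89 in non-reactive replicates. It was dim throughout, at a difference of 0.30 (95% interval -0.16 to 0.76).

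Mgat4a and Mgat4b encode isoenzymes that start the same antenna on the other arm of the core. The Mgat4a probe set 1435641_at read 5.94, 5.15 and 7.26 in reactive replicates, against 6.32, 5.91 and 5.44 in non-reactive replicates. The groups overlapped (difference 0.23, 95% interval -1.07 to 1.53, adjusted p = 0.874), and without reactive replicate 3 the difference was -0.34. The other, 1444347_at, read 4.76, 4.50 and 4.62 in reactive replicates, against 3.95, 3.82 and 3.98 in non-reactive replicates. Its groups did not overlap and its arrays were tight, at a difference of 0.71 (SE 0.19, 95% interval 0.26 to 1.16, adjusted p = 0.179), but its mean lay below 4.74.

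Mgat4b had the smallest difference of the members. It read 8.67, 8.79 and 8.89 in reactive replicates, against 8.94, 8.68 and 8.58 in non-reactive replicates. The groups overlapped, and the difference of 0.049 had a 95% interval of -0.43 to 0.53, which leaves out a 2-fold change in either direction. The intervals of 4 member probe sets stayed within 2-fold, and Mgat4b was the 1 of these whose mean lay above 4.74.

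Over all 45037 probe sets 27196 differences lay above 0 and 17841 below, with a median of 0.10. Across the 16 member probe sets 11 differences lay above 0 and 5 below, with a median of 0.26. Groups did not overlap in 9 of them, 7 higher and 2 lower, where 20.9% of all probe sets had groups that did not overlap (12.8% higher and 8.08% lower). Of the 9 probe sets of galectins and Lgals3bp, 5 differed by at least 2-fold, 3 upward and 2 downward. The SD was larger among reactive than among non-reactive arrays in 13 of the 16, and the same share over all probe sets was not counted. Reactive replicate 3 was the highest, replicate 1 the middle and replicate 2 the lowest reactive array in 5 member probe sets, those of Lgals3, Lgals1, B4galt1 and the brighter of Mgat4a, an order found in 16.8% of all probe sets. As many member probe sets, 5, had replicate 1 highest and replicate 3 lowest with replicate 2 between them, those of Lgals9 and Lgalsl and 2 of Mgat5, an order found in 19.3% of all probe sets. The members thus shared no single order of the reactive arrays.

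**Figure D3:**
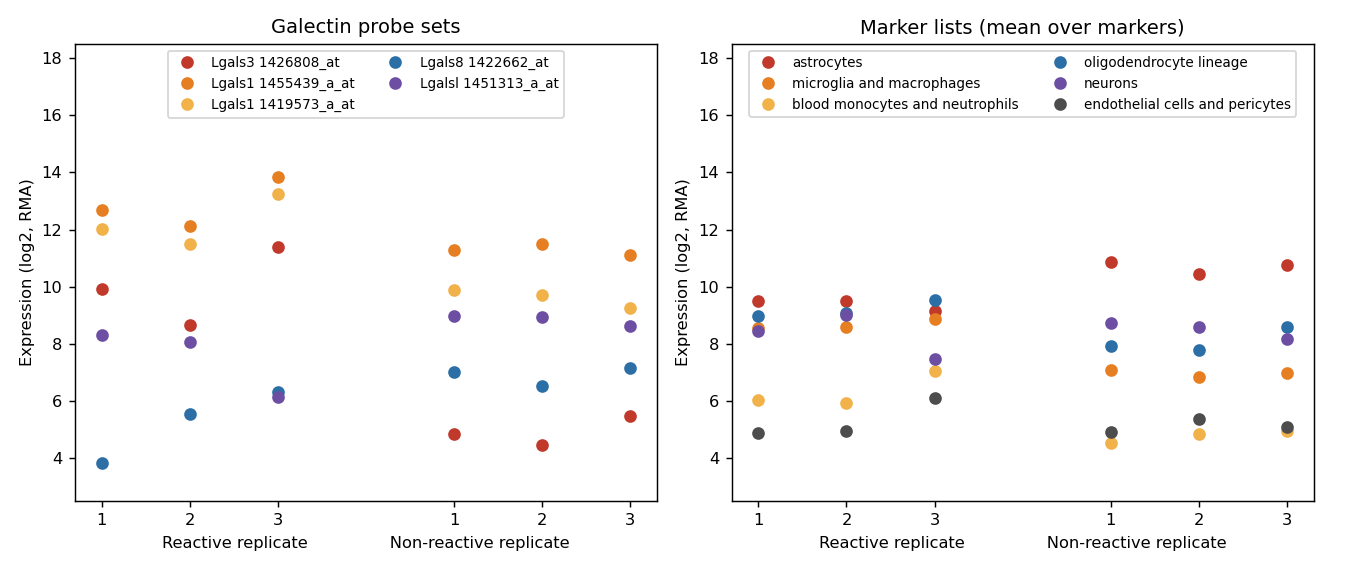
Left, 5 galectin probe sets on each array, and right, the mean level of 6 cell type marker lists on the same arrays (all log2, RMA), with reactive replicates left of non-reactive replicates. Lgals3 is higher on all 3 reactive arrays than on the non-reactive arrays, and reactive replicate 3 is the highest. The same holds for the lists of microglia and macrophages, of blood monocytes and neutrophils and of the oligodendrocyte lineage.

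Markers of some other cells, though not of all, were higher on reactive arrays, as Lgals3 and Lgals1 were. Of 22 measured markers of microglia and macrophages 21 had differences above 0 and 6 rose, among them C1qa, a complement subunit, by 3.76, Cd68, a lysosomal protein, by 4.12 and Tyrobp, a signalling adaptor, by 2.59. The log2 of their summed level was 14.89, 14.697 and 15.37 in reactive replicates 1, 2 and 3, against 13.36, 13.41 and 13.41 in non-reactive replicates. The bright markers Csf1r and Ctss differed by 0.42 and 1.52 without passing, and Cx3cr1, a chemokine receptor of microglia, by 0.037. Itgam, Cd163 and Mrc1 had means below 4.74, and Cd163 differed by -0.29. Cd68 read 8.14, 8.78 and 10.07 on reactive arrays, against 5.74, 4.41 and 4.46 on non-reactive arrays, so 2 of its non-reactive readings also lay below 4.74. The summed level was higher on every reactive array than on any non-reactive array, with replicate 3 at the top as for Lgals3. With 1 array left out, Cd68 passed in none of the 6 fits (adjusted p of 0.0574 to 0.154), while C1qa lay between 0.0378 and 0.0669 and Tyrobp between 0.0447 and 0.105.

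Of 17 markers of blood monocytes and neutrophils 4 rose, Lyz1, Lyz2, Cd52 and Plac8, and the log2 of their summed level ran from 12.92 to 14.05 on reactive arrays and from 8.87 to 9.50 on non-reactive arrays. Lyz1 and Lyz2, near-identical genes whose signals cannot be separated, had the highest reactive means of the list and differed by 5.85 and 5.67. The mean level over the 17 markers differed by 1.56 and the median difference was 0.71. That mean level was 6.02, 5.91 and 7.05 in reactive replicates 1, 2 and 3, against 4.52, 4.83 and 4.93 in non-reactive replicates. At least 2-fold differences were found in 8 of the 17, and Ccr2, a monocyte chemokine receptor, differed by -0.029. Among these 8, Fn1, F10, S100a8 and Chil3 read 9.15, 7.57, 7.02 and 8.33 on reactive replicate 3. On reactive replicates 1 and 2 they read 6.12 at most. Of the neutrophil genes, S100a8 and S100a9 differed by 1.40 and 0.71, and Ngp, Camp, Mmp8 and Mmp9 by -0.24, 0.093, 0.27 and 0.023. Cd3e and Cd3d, T cell genes also in the list, differed by 0.15 and 0.032. Each of the 4 calls was lost in some fit with 1 array left out, with highest adjusted p of 0.0634 for Lyz1 and Plac8, 0.0732 for Lyz2 and 0.0856 for Cd52. Of 13 oligodendrocyte lineage markers 12 had differences above 0, 6 of at least 2-fold, with a median of 0.94, and 1 rose, Ermn by 2.17, a call lost in every fit with 1 array left out (adjusted p of 0.064 to 0.123). Their mean level ran from 8.97 to 9.54 on reactive and from 7.77 to 8.58 on non-reactive arrays, without overlap. Their summed level, in which the brightest marker Mbp (difference -0.49) weighs most, overlapped, at 14.60 to 14.71 on reactive and 14.32 to 14.66 on non-reactive arrays. Of 12 neuronal and 12 vascular markers 0 passed in limma, with 1 and 2 at an unadjusted p under 0.05. Their summed levels overlapped between the groups, at 13.16 to 14.13 against 13.87 to 14.28 for neuronal markers and 8.86 to 10.95 against 9.44 to 10.30 for vascular markers, with reactive replicate 3 lowest in the first and highest in the second. Of 14 astrocyte markers Gfap rose and 5 fell. Differences lay below 0 in 13 of the 14, and 10 were lower by at least 2-fold. Slc4a4 differed by -2.98, Gjb6 by -2.63, Sox9 by -2.31, Slc1a3, a glutamate transporter, by -1.62 and Gja1, a connexin, by -1.38. With 1 array left out, the calls of Gfap, Gja1, Slc1a3 and Gjb6 were lost in every fit. Their adjusted p ran from 0.0763 to 0.158, 0.0905 to 0.18, 0.0852 to 0.168 and 0.0582 to 0.112. Those of Slc4a4 and Sox9 were lost in some fits, at adjusted p of 0.0342 to 0.0795 and 0.0494 to 0.111. In bulk samples fewer cells of a type and less RNA per cell cannot be told apart. The part of these markers in the difference of Lgals3, or of any other member, was not tested.

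The rest of the pathway was read from 105 measured genes in 6 lists, each gene by its brightest probe set. Besides Lgals3, 1 of these genes rose and 1 fell, where 0.951% of all 18193 genes passed, 0.39% higher and 0.561% lower. Both belong to a list of glycoproteins reported to bind galectins. Trem2, a lipid receptor of microglia, read 7.82, 8.70 and 8.15 in reactive replicates, against 5.87, 5.86 and 6.21 in non-reactive replicates, and rose by 2.24 (SE 0.28, adjusted p = 0.0341). That was the brighter of its 2 probe sets, and the other did not pass. Mertk, a phagocytic receptor of astrocytes and microglia, read 8.61, 8.52 and 8.79, against 10.68, 10.49 and 9.96, and fell by 1.74 (SE 0.25, adjusted p = 0.0441). In these probe sets of Trem2 and Mertk the groups lay well apart. Both calls were lost when any 1 array was left out, at adjusted p of 0.0533 to 0.128 for Trem2 and 0.0747 to 0.168 for Mertk. Trem2, Ptprc and Itgam of this list are also markers of microglia and macrophages.

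No other gene of that list passed by its brightest probe set. Over the 33 measured, the median difference was 0.18, against 0.12 over all genes, and 10 differed by at least 2-fold, 7 upward and 3 downward, where 12.3% of all genes differed by at least 2-fold. Lamp1 and Lamp2, lysosomal membrane proteins rich in poly-N-acetyllactosamine, differed by 0.052 (adjusted p = 0.954) and -0.105 (adjusted p = 0.917) at their brightest probe sets. The other 3 Lamp2 probe sets lay above 0 without passing. Of these, 1416344_at differed by 1.01 with groups that did not overlap and 1428094_at by 0.88, while 1416343_a_at, with a mean below 4.74, differed by 1.21. Without reactive replicate 3 the differences of 1428094_at and 1416343_a_at were 0.44 and 0.37. Cd44, a hyaluronan receptor chosen after its values were seen, read 7.01, 6.56 and 8.96 in reactive replicates, against 4.31, 5.71 and 5.56 in non-reactive replicates. Its groups did not overlap, but the difference of 2.32 (SE 0.69) did not pass (adjusted p = 0.228), and without reactive replicate 3, the highest, it was 1.59. These are values of the brightest Cd44 probe set. The others had means below 4.74 and did not pass, at 1.45 (1434376_at), -0.15 (1452483_a_at) and 0.22 (1443265_at). Probe set 1434376_at read 7.84 on reactive replicate 3, against 3.84 and 3.22 on reactive replicates 1 and 2. Ncam1, a neural adhesion molecule with 7 probe sets, differed by -1.75 at its brightest without passing. Another of them, 1439556_at, which was also chosen after its values were seen, fell by 3.58 (adjusted p = 0.0233, with 0.0445 to 0.0909 when 1 array was left out), and its reactive mean of 3.37 lay below 4.74.

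**Figure D4:**
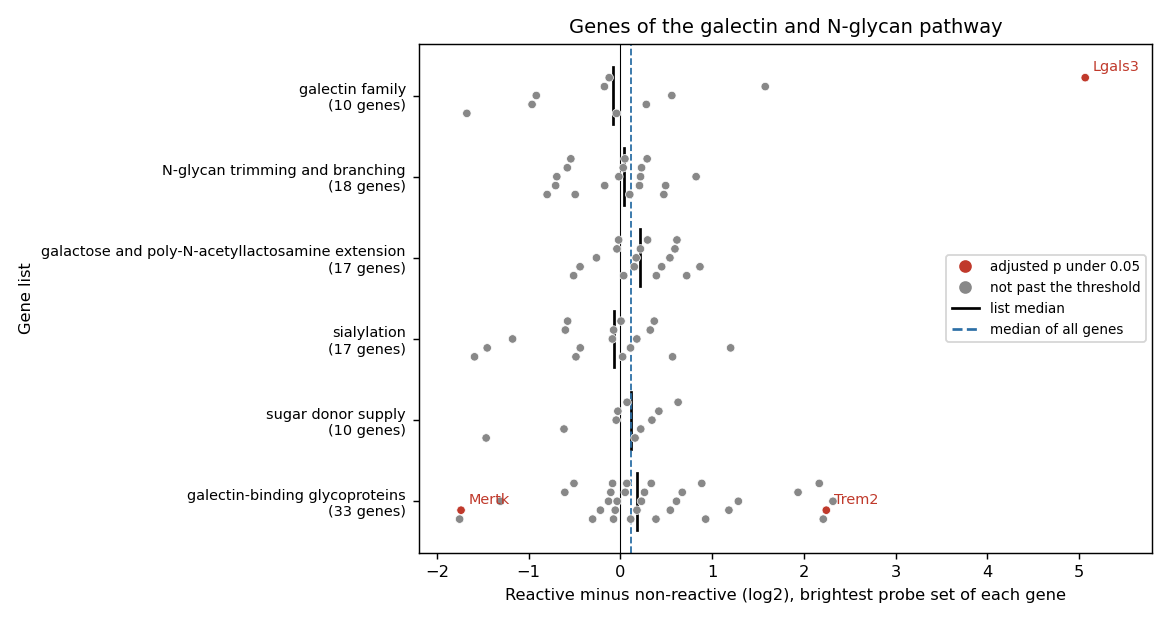
Reactive minus non-reactive difference (log2) of each measured gene in 6 lists, by its brightest probe set, with red points past an adjusted p of 0.05, black bars at list medians and a dashed line at the median of all genes, 0.12. Lgals3, Trem2 and Mertk are the 3 red points, and the medians of the lists lie between -0.083 and 0.22.

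The glycosylation lists held no gene past the threshold in limma. Over all 18193 genes 2730 had an unadjusted p under 0.05. Of 18 genes for trimming and branching, 3 had an unadjusted p under 0.05 and the median difference was 0.040. Man2a2, a Golgi mannosidase that acts before the outer branches, differed by -0.71 (adjusted p = 0.321). Of 17 genes for galactose and poly-N-acetyllactosamine extension, 3 had an unadjusted p under 0.05 and the median was 0.22, with the galactosyltransferases B4galt6 at -0.038 and B4galt3 at -0.26. Of 17 sialylation genes, 1 had an unadjusted p under 0.05 and the median was -0.074, and 4 differed by at least 2-fold, 1 upward and 3 downward. The gene under 0.05 was St3gal2, chosen after its values were seen. It differed by -1.45 without passing (adjusted p = 0.123), with groups that did not overlap. Cmas, which activates sialic acid, differed by -0.58. St6gal1, whose alpha-linked sialic acid caps sites that galectin-1 would bind, differed by -0.60, and its reading of 6.12 in reactive replicate 1 lay far under the range of 8.80 to 9.70 on the other 5 arrays. Of 10 genes for sugar donors, 1 had an unadjusted p under 0.05 and the median was 0.12, with Galt at -0.028 and Ugp2 at -1.46. Ugp2 was -0.64 without reactive replicate 1, its lowest array. Of the 62 genes in these 4 lists 5 differed by at least 2-fold, 4 of them in the sialylation list, against that 12.3% of all genes.

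**Figure D5:**
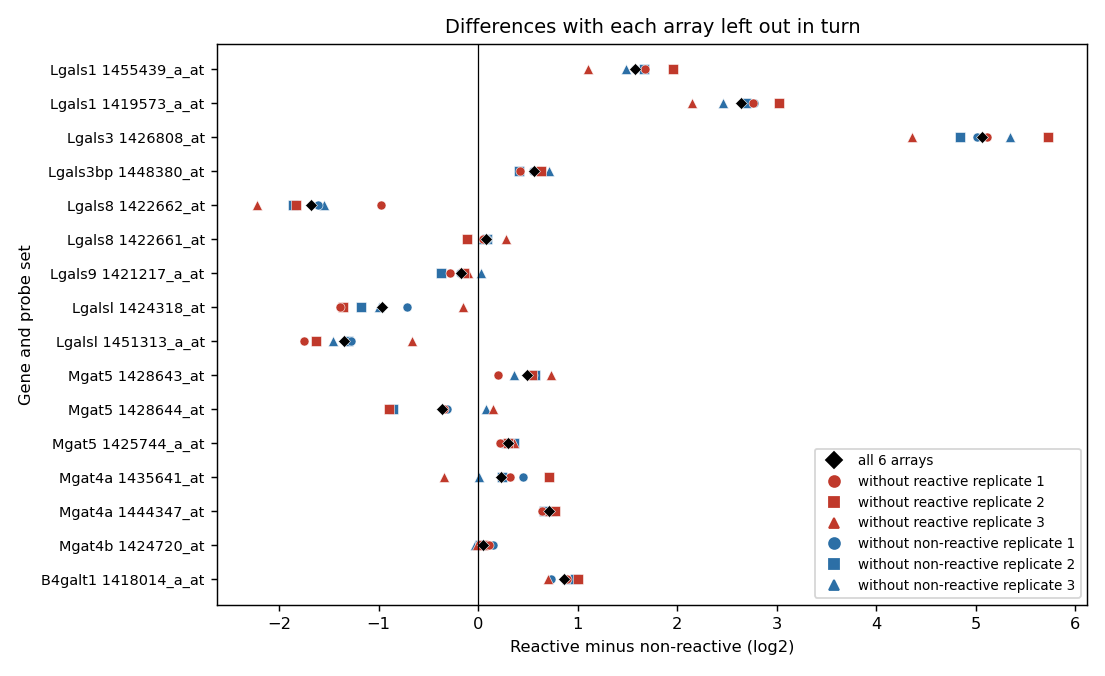
Reactive minus non-reactive difference (log2) of each member probe set with all 6 arrays (black diamond) and with each array left out in turn, red for reactive and blue for non-reactive arrays. Lgals3 stays between 4.36 and 5.73 and both Lgals1 probe sets at 1.10 or more, while the Lgalsl probe sets move to -0.15 and -0.66 without reactive replicate 3.

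Genes with the pattern most like that of Lgals3 over the 6 arrays were sought among 12111 others with a mean above 4.74, by Pearson correlation of brightest probe sets. The closest was Anxa3, a calcium-dependent membrane-binding annexin, at 0.998, followed by Smim27 and Tmem167 at 0.997 and 0.994, Itgb1, the beta chain of many integrins, at 0.993 and Atox1, a copper chaperone, at 0.992. Anxa3 rose by 3.36 (adjusted p = 0.0352, with 0.0421 to 0.127 when 1 array was left out), whereas Itgb1 followed the same array pattern over a difference of 0.34 (adjusted p = 0.479). For Lgals1 the closest were Flnc, an actin crosslinker, at 0.995, and Ifi30, a lysosomal thiol reductase, Hnrnpab, Tmem106a and Nr0b2, all 4 at 0.991 to 0.992. The closest of so many genes over only 6 arrays in 2 groups can reach high values without any link, and no test was made. Of the 12111 genes, 136 exceeded 0.95 with Lgals3 and 99 with Lgals1.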

How the data were processed

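The authors deposited log2 expression values made with RMA, per the submitters' processing notes, which give no version, background setting or list of arrays normalised together. RMA equalises the distributions of arrays, so a change in total RNA per cell is not visible. Array medians ran from 4.65 to 4.73. The number of arrays, 3 a group, limits the precision. Of 45101 probe sets 64 controls were left out. Symbols came from the platform annotation (1 symbol for 34945 probe sets, several for 932, none for 9160). A gene was represented by its probe set of highest mean.

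Reactive minus non-reactive was fitted without covariates in R 4.3.3 by limma 3.58.1 (lmFit, then eBayes), two-sided, with Benjamini-Hochberg adjustment over all 45037 probe sets and a threshold of 0.05. Named genes were the members, each list's genes past the threshold and its brightest 2 others, the 5 genes most like Lgals3 and Lgals1, the reporters' genes, and markers that passed or were brightest. The members and lists were chosen with earlier results of these data known. Promoters came from RefSeq (GRCm38.p6). The array files name no genome build.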

Additional observations from a re-analysis of the deposited data

How the results depend on the processing

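The alternatives for each probe set, up to 15, were other scalings (quantile, median centring, cyclic loess), other variance models (trend, robust, array weights), filters on dim or suffixed probe sets, the replicate number as a block and each array left out. Of 16 member probe sets 11 kept their sign in each alternative run on them, and Lgals3 was the 1 that passed in any. Replicate numbers did not pair the arrays: deviations of same-numbered arrays correlated at -0.073, -0.11 and 0.037, and reactive replicate 2 was closest to non-reactive replicate 1 (0.19). With the replicate block limma called 1 probe set (5128 at an unadjusted p under 0.05), 0 members (7) and 0 pathway genes (19), and Lgals3, still at 5.07, missed (adjusted p = 0.105, in a range of 0.0282 to 0.138). Against a 1.5-fold change limma called 41 probe sets and 0 members (3 at an unadjusted p under 0.05). With 1 array left out the counts were 1 to 173 probe sets (383 with all arrays), 0 to 1 members (5 to 7 at an unadjusted p under 0.05 where 0) and 0 to 1 pathway genes (3 with all arrays), and Lgals3 lay between 4.36 and 5.73. With 1 array left out some differences turned sign: Lgals8 1422661_at lay between -0.11 and 0.28, Lgals9 between -0.37 and 0.029, Mgat5 1428644_at between -0.89 and 0.15, Mgat4a 1435641_at between -0.34 and 0.71, and Mgat4b between -0.029 and 0.15. Likewise B4galt6 lay between -0.42 and 0.39, B4galt3 between -0.62 and 0.14, St6gal1 between -1.23 and 0.57, Galt between -0.37 and 0.34, Lamp1 between -0.22 and 0.21, Lamp2 (brightest probe set) between -0.46 and 0.088, Cx3cr1 between -0.25 and 0.24 and Ccr2 between -0.086 and 0.046. After a second quantile normalisation Ccr2 was 0.027 and Lamp1 -0.040, Lamp1 was -0.00029 after cyclic loess, and with array weights B4galt6 was 0.015, Galt 0.035 and Cx3cr1 -0.038. The cause was not tested.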
